A study of Homo sapiens with 24 samples.

Results

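The 41 genes described here encode enzymes and regulators of cholesterol and fatty acid synthesis, listed by symbol as a sterol branch of 22 genes and a fatty acid branch of 19 genes. A gene was tested where its entry in the deposited expression table held at least 10 in at least 3 of the 24 libraries. All 41 symbols were found among the 25541 entries of the table, and 40 of them passed this filter, beside 20176 of all entries. The gene that did not pass was ME1, cytosolic malic enzyme, with 1.19 to 8.43 scaled fragments per library. The lowest gene that passed was DGAT2, a diacylglycerol acyltransferase, with 93.9 to 285 scaled fragments. A scaled fragment is an estimated sequenced fragment after all 24 libraries were brought to 1 common scale.

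RNA came from 2 derivatives of T47D, a human line from a luminal breast cancer: T47D-co, labelled as positive for the progesterone receptor (PR), and T47D-Y, labelled as PR null. Cells of both lines were given interferon-alpha (IFN, 20 IU/ml) or water for 18 hours and, for 6 hours, 10 nM of the synthetic progestin R5020 or ethanol alone (EtOH). Each line thus had 4 groups, R5020 with IFN, EtOH with IFN, R5020 with water and EtOH with water, and each of the 8 groups had 3 biological replicates, 24 libraries in all. All cells grew in minimum essential medium with foetal bovine serum and insulin. The lines differ in more than the receptor label may cover, so PR and any other difference between these 2 derivatives cannot be told apart.

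Cholesterol is built from acetyl-CoA through mevalonate, the isoprenoids and squalene, and fatty acids are built from acetyl-CoA through malonyl-CoA and then desaturated, elongated and joined to glycerol. Many of the genes of both branches are transcribed under the sterol regulatory element-binding proteins (SREBPs), which the escort SCAP carries out of the endoplasmic reticulum when sterols are low and which the INSIG proteins hold back when sterols are high. In breast cancer cells in culture, progestins are known to raise fatty acid synthase and lipid storage.

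Libraries held 14141355 to 33607512 estimated fragments (median 18385833). PGR, the gene of PR itself, was 24903 to 27957 scaled fragments in T47D-co given EtOH and 11805 to 13718 in T47D-co given R5020. In T47D-Y it was 642 to 719 with EtOH and 418 to 483 with R5020, with 6 libraries in each set. FKBP5, a progestin and glucocorticoid target, averaged 21580 ± 795 scaled fragments with R5020 and 2075 ± 26.2 with EtOH in T47D-co given water (SD, n = 3 each). All 8 luminal epithelial markers examined passed the filter in both lines, and their summed level was 64430 to 69970 in the 6 T47D-co libraries given R5020 and 96210 to 100600 in the 6 given EtOH. Of the markers of other cell types, leukocyte markers summed to 9.35 to 77.3 scaled fragments and adipocyte markers to 193 to 338, with 4 of 5 and 5 of 7 listed genes in the table. Fibroblast markers, of which PDGFRA and COL1A1 were the 2 of 6 in the table, summed to 3233 to 3645 in T47D-co given R5020, 2637 to 2818 in T47D-co given EtOH and 2091 to 2339 in T47D-Y, most of it PDGFRA. Mitochondrial transcripts were low in 4 libraries given water, at 0.942 to 1.08% of fragments against 3.17 to 4.75% in the other 20. In T47D-co this was EtOH replicate 2, and in T47D-Y it was the first 2 R5020 libraries and EtOH replicate 1. Several counts of calls that involve these 4 libraries are given with and without them, beside the result or with the other alternatives at the end. They are not given for the difference of the R5020 response between IFN states or of the IFN response between lines. The part of the luminal, fibroblast-marker and mitochondrial shifts in the results was not tested.

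Of the 41 entries, 11 carry more than 1 gene name because the authors' assembly merged overlapping transcripts. In 4 of them the partner is another coding gene: TM7SF2 with VPS51, CYP51A1 with LRRD1, FADS2 with FEN1 and ACSL4 with KCNE1L, and their values cannot be assigned to 1 gene. A further limit is that 21 members overlap other entries on the genome, where fragments were divided between entries by estimate.

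With R5020, most genes of both branches were higher in T47D-co. In libraries given water, 16 of the 22 sterol genes rose and 3 fell, and 15 of the 18 tested fatty acid genes rose and none fell, by limma at a Benjamini-Hochberg adjusted p under 0.05. Of all 20176 tested entries, 26.6% were called higher and 30.0% lower in this comparison, so calls were common throughout the table. The median log2 fold change was 0.27 in the sterol branch and 0.47 in the fatty acid branch, beside -0.04 over all tested entries. In libraries given IFN, 14 sterol genes rose and 6 fell and 15 fatty acid genes rose and 2 fell, beside 27.5% and 30.6% of all entries, with medians of 0.25 and 0.41 beside -0.05. Under quantile normalization the sterol split with water was 13 higher and 5 lower. Without the 4 libraries low in mitochondrial transcripts, the sterol branch had 16 higher and 4 lower and the fatty acid branch 15 higher and 0 lower with water.

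**Figure D1:**
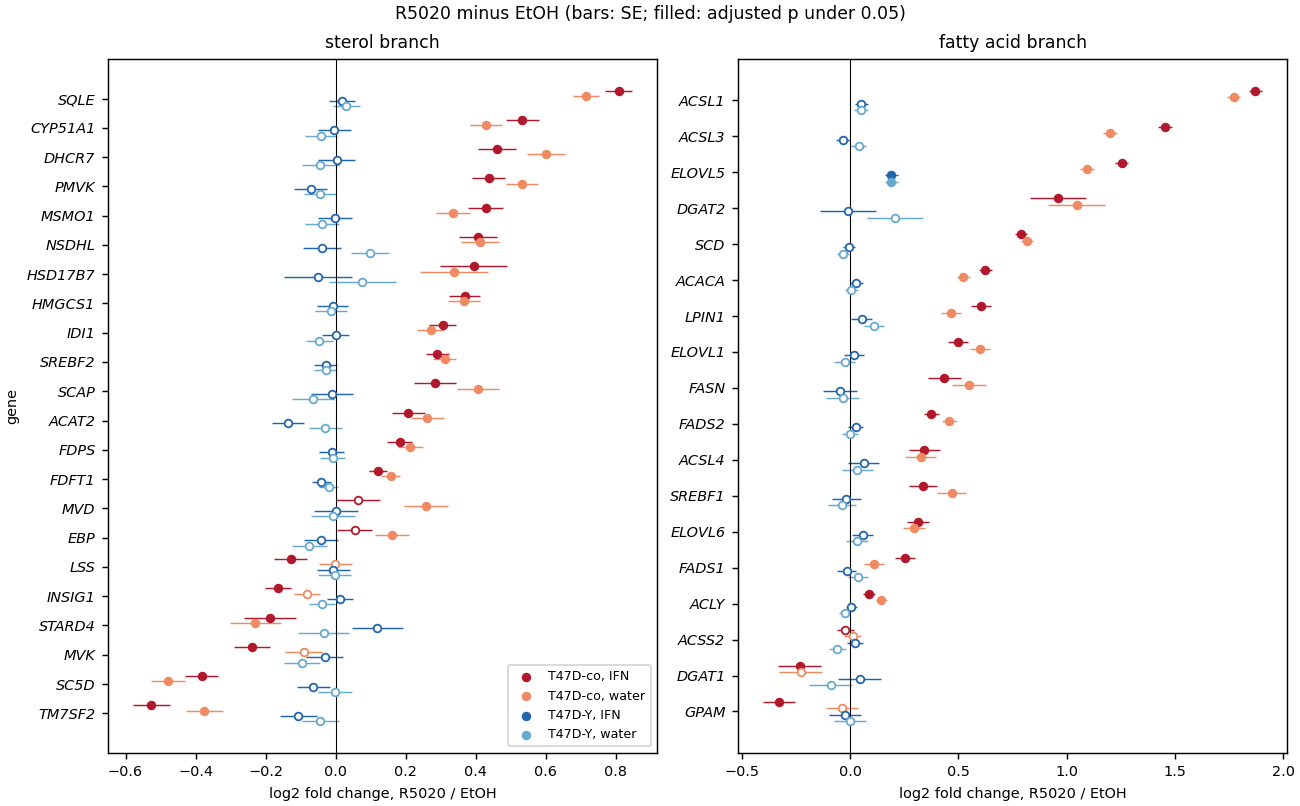
Log2 fold changes of R5020 over EtOH (x axis) for the 22 sterol genes (left) and the 18 tested fatty acid genes (right), in each line with IFN and with water, with bars for the standard error and filled points for a limma adjusted p under 0.05. The T47D-co points reach 1.87 at ACSL1 and spread to both sides of 0, while the T47D-Y points all lie between -0.14 and 0.21.

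The first steps of sterol synthesis were higher with R5020 in T47D-co, apart from MVK. HMGCS1, which makes HMG-CoA, held 3949, 4026 and 4109.9 scaled fragments with R5020, against 3156, 3196 and 3021 with EtOH, in libraries given water. All 3 R5020 libraries lay above all 3 EtOH libraries, and the log2 fold change was 0.37 ± 0.04 (SE; limma adjusted p = 1.19e-07), with 0.37 ± 0.04 in libraries given IFN. ACAT2, the thiolase that opens the chain, rose by 0.26 ± 0.05 with water and 0.21 ± 0.05 with IFN on the log2 scale. The 3 enzymes that turn mevalonate into isopentenyl diphosphate behaved differently from each other. MVK, mevalonate kinase, did not pass the test with water (-0.09 ± 0.05, 95% interval -0.20 to 0.02) and fell with IFN (-0.24 ± 0.05, adjusted p = 0.000351). PMVK, phosphomevalonate kinase, which acts next, held 1429, 1412 and 1483 scaled fragments with R5020, against 999.9, 1022 and 968 with EtOH, given water, a log2 fold change of 0.53 ± 0.05. MVD, the decarboxylase that follows, rose with water (0.26 ± 0.06) and did not pass with IFN (0.06 ± 0.06, 95% interval -0.07 to 0.19). IDI1, the isomerase, and FDPS and FDFT1, which build farnesyl diphosphate and squalene, rose by 0.27 ± 0.04, 0.21 ± 0.04 and 0.16 ± 0.03 with water and by 0.31 ± 0.04, 0.18 ± 0.04 and 0.12 ± 0.03 with IFN.

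SQLE, squalene epoxidase and a rate-setting step of the pathway, had the largest rise of the sterol branch in T47D-co. It held 7035, 6625 and 6802 scaled fragments with R5020, against 4101, 4208 and 4155 with EtOH, in libraries given water, and 7369, 7414 and 6834 with R5020, against 4354, 3933 and 4063 with EtOH, in libraries given IFN. The 6 R5020 libraries all lay above the 6 EtOH libraries, at 1.64-fold with water (log2 0.71 ± 0.04, limma adjusted p = 1.37e-14) and 1.75-fold with IFN (log2 0.81 ± 0.04, adjusted p = 1.02e-15). LSS, lanosterol synthase, which closes the sterol rings in the next step, was not called higher. With water the 95% interval of its log2 fold change was -0.10 to 0.10, and with IFN it fell by 0.13 on the log2 scale (adjusted p = 0.0217), with overlapping libraries.

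Past lanosterol, the enzymes split. CYP51A1, MSMO1 and NSDHL, which remove methyl groups from the sterol core, rose in both IFN states, CYP51A1 by 0.43 ± 0.05 with water and 0.53 ± 0.05 with IFN, MSMO1 by 0.34 ± 0.05 and 0.43 ± 0.05, and NSDHL by 0.41 ± 0.05 and 0.41 ± 0.05. HSD17B7, a ketoreductase of the same complex, rose by 0.34 ± 0.10 and 0.39 ± 0.10. EBP, the sterol isomerase, rose with water (0.16 ± 0.05) and did not pass with IFN (0.05 ± 0.05). The reductase entry TM7SF2, merged with VPS51, and the desaturase SC5D fell instead. SC5D (chr11:121163161-121179403, hg19) held 1394, 1313 and 1392 scaled fragments with R5020, against 1915, 1923 and 1874 with EtOH, in libraries given water, and 1399, 1471 and 1322, against 1928, 1689 and 1853, in libraries given IFN. Its R5020 libraries all lay below its EtOH libraries, with log2 fold changes of -0.48 ± 0.05 (adjusted p = 4.08e-09) and -0.38 ± 0.05 (adjusted p = 1.88e-07). The TM7SF2 entry held 6216, 6575 and 6212 with R5020, against 8569, 8048 and 8029.5 with EtOH, given water, and 5299, 5357 and 6096, against 7989, 8570.3 and 7551, given IFN (log2 -0.38 ± 0.05 and -0.53 ± 0.05). DHCR7, the reductase of the last step, which acts on the product of SC5D, went the other way. DHCR7 (chr11:71139238-71163914, hg19) held 6074, 6425 and 5864 scaled fragments with R5020, against 4197, 3874 and 4038 with EtOH, given water (log2 0.60 ± 0.05, adjusted p = 3.38e-10), and 5148, 5183 and 5896, against 3917, 4116 and 3744, given IFN (log2 0.46 ± 0.05).

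Of the regulators of the pathway, SREBF2 and SCAP rose and INSIG1 and STARD4 did not. SREBF2, the gene of the SREBP that serves sterol synthesis, held 6632, 6864 and 6518 scaled fragments with R5020, against 5501, 5318 and 5303 with EtOH, given water (log2 0.31 ± 0.03, limma adjusted p = 9.08e-09), and rose by 0.29 ± 0.03 with IFN. Quantile normalization lowered this rise to 0.15 with water, and with IFN to 0.07, which was not called (adjusted p = 0.0671). SCAP, the SREBP escort, held 1668, 1864 and 1639.9 with R5020, against 1334, 1264 and 1297 with EtOH, given water, and rose by 0.41 ± 0.06 with water and 0.28 ± 0.06 with IFN. INSIG1, which retains SCAP in the endoplasmic reticulum, held 2132, 2027 and 2051 with R5020, against 2251, 2104 and 2219 with EtOH, given water, and 1989, 1991 and 2041, against 2333, 2278 and 2145, given IFN. With IFN the groups did not overlap and INSIG1 fell (-0.17 ± 0.04, adjusted p = 0.000415), while with water the log2 fold change of -0.08 ± 0.04 missed the threshold (adjusted p = 0.0615). Leaving out T47D-co EtOH replicate 2 or R5020 replicate 1, both given water, made that second value a call, at -0.11 and -0.10 (adjusted p = 0.0224 and 0.037). Without the 4 low-mitochondrial libraries it was -0.11 (adjusted p = 0.0192), and under quantile normalization -0.19 (adjusted p = 0.000169). STARD4, a cholesterol carrier, fell by 0.23 on the log2 scale with water (adjusted p = 0.00993) and by 0.19 with IFN (adjusted p = 0.0325). The STARD4 call with water was lost without T47D-co EtOH replicate 1 (-0.20, adjusted p = 0.0506), and that with IFN without replicate 1 of either group or replicate 3 of either group (adjusted p = 0.0763 to 0.159).

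In the fatty acid branch the largest changes were in the acyl-CoA synthetases, which activate free fatty acids. ACSL1 (chr4:185676748-185747972, hg19), a long-chain synthetase, held 8169.7, 8051 and 8381 scaled fragments with R5020, against 2485, 2339 and 2384 with EtOH, in T47D-co libraries given water, and 8768, 8990.2 and 8872, against 2453, 2449 and 2369, given IFN. The change was 3.41-fold with water (log2 1.77 ± 0.03, limma adjusted p = 1.27e-24) and 3.66-fold with IFN (log2 1.87 ± 0.03, adjusted p = 3.48e-25), and the groups lay far apart. ACSL3 (chr2:223725651-223809357, hg19), the synthetase of nascent lipid droplets, held 4948, 4803 and 4898 with R5020, against 2127, 2085 and 2159 with EtOH, given water (log2 1.20 ± 0.03), and 5825, 5830.3 and 5409.8, against 2100.2, 1996 and 2129, given IFN (log2 1.45 ± 0.03). The ACSL4 entry, an arachidonate-preferring synthetase merged with KCNE1L, rose by less, 0.33 ± 0.07 with water and 0.34 ± 0.07 with IFN. ACSS2, which activates acetate, did not pass in either state (0.01 ± 0.04 and -0.02 ± 0.04).

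The chain from citrate to palmitate was higher at each of its steps. ACLY, which cuts citrate into acetyl-CoA, rose by 0.15 ± 0.03 with water and 0.09 ± 0.03 with IFN on the log2 scale. ACACA, acetyl-CoA carboxylase and the committed step, held 5858, 5836 and 5948 scaled fragments with R5020, against 4081, 4116 and 4078 with EtOH, given water (log2 0.52 ± 0.03, limma adjusted p = 5.69e-14), and rose by 0.63 ± 0.03 with IFN. FASN, fatty acid synthase, held 26080, 29281 and 26782 with R5020, against 19636, 17651 and 18797 with EtOH, given water, and 22738, 22089 and 28029, against 17427, 19402 and 16804, given IFN. FASN was higher in every R5020 library than in every EtOH library, by 0.55 ± 0.08 with water (adjusted p = 1.00e-06) and 0.44 ± 0.08 with IFN (adjusted p = 2.72e-05), and its 3 libraries given R5020 and IFN spread more widely than the other groups. SREBF1, the gene of the SREBP that serves fatty acid synthesis, held 4281, 4640.3 and 4229 with R5020, against 3255, 3060.3 and 3178 with EtOH, given water (log2 0.47 ± 0.07), and rose by 0.34 ± 0.07 with IFN. Summed with the other entries at its locus, SREBF1 rose by 0.23 and 0.20.

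Desaturation and elongation followed. SCD, stearoyl-CoA desaturase (chr10:102106880-102124591, hg19), held 69319, 67704 and 67588 scaled fragments with R5020, against 38659, 39585 and 37971 with EtOH, given water, and 69401, 72219 and 69588, against 42489, 39706 and 39944, given IFN. The groups did not overlap, and the rise was 1.76-fold with water (log2 0.82 ± 0.03) and 1.73-fold with IFN (log2 0.79 ± 0.03), and under quantile normalization the log2 value with IFN was 0.30. ELOVL5, an elongase of polyunsaturated fatty acids (chr6:53132195-53213947, hg19), held 7771, 7696 and 7753 with R5020, against 3539, 3672 and 3663 with EtOH, given water (log2 1.09 ± 0.03, limma adjusted p = 1.68e-20), and 8563, 8630.2 and 8414, against 3613, 3492 and 3623, given IFN (log2 1.25 ± 0.03, adjusted p = 9.24e-22). ELOVL1, for very long chains, rose by 0.60 ± 0.05 and 0.50 ± 0.05, and ELOVL6, which lengthens palmitate, by 0.29 ± 0.05 and 0.31 ± 0.05. The desaturase entry FADS2, merged with FEN1, rose by 0.46 ± 0.04 and 0.38 ± 0.04, and the neighbouring FADS1 by 0.11 ± 0.04 and 0.25 ± 0.04.

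The genes that join fatty acids to glycerol did not move together. DGAT2 held 244, 222 and 285 scaled fragments with R5020, against 118, 101 and 145 with EtOH, given water (log2 1.05 ± 0.13, limma adjusted p = 1.42e-07), and 259, 241 and 219.6, against 129, 113 and 126, given IFN (log2 0.96 ± 0.13). DGAT2 shares its locus with 5 other entries, and the sum over the locus rose by 0.57 with water. LPIN1, a phosphatidate phosphatase, rose by 0.47 ± 0.05 with water and 0.61 ± 0.05 with IFN. DGAT1, the second diacylglycerol acyltransferase, held 486, 567 and 474 with R5020, against 614, 590.2 and 579.5 with EtOH, given water, where it missed the threshold (-0.23 ± 0.10, adjusted p = 0.0545) although no library overlapped. With IFN DGAT1 fell by the same amount (-0.23 ± 0.10, adjusted p = 0.0477), a call that was lost under quantile normalization, on the deposited scale, with no filter on low values (adjusted p = 0.0578, 0.0616 and 0.0728) and without EtOH replicates 1 or 2 or R5020 replicates 1 or 2 (adjusted p = 0.0708 to 0.196). GPAM, the mitochondrial acyltransferase that starts glycerolipid synthesis, held 236, 287 and 282 with R5020, against 299, 343 and 369 with EtOH, given IFN, and fell (-0.33 ± 0.07, adjusted p = 0.000489), while with water its value was -0.04 ± 0.07 (adjusted p = 0.708).

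**Figure D2:**
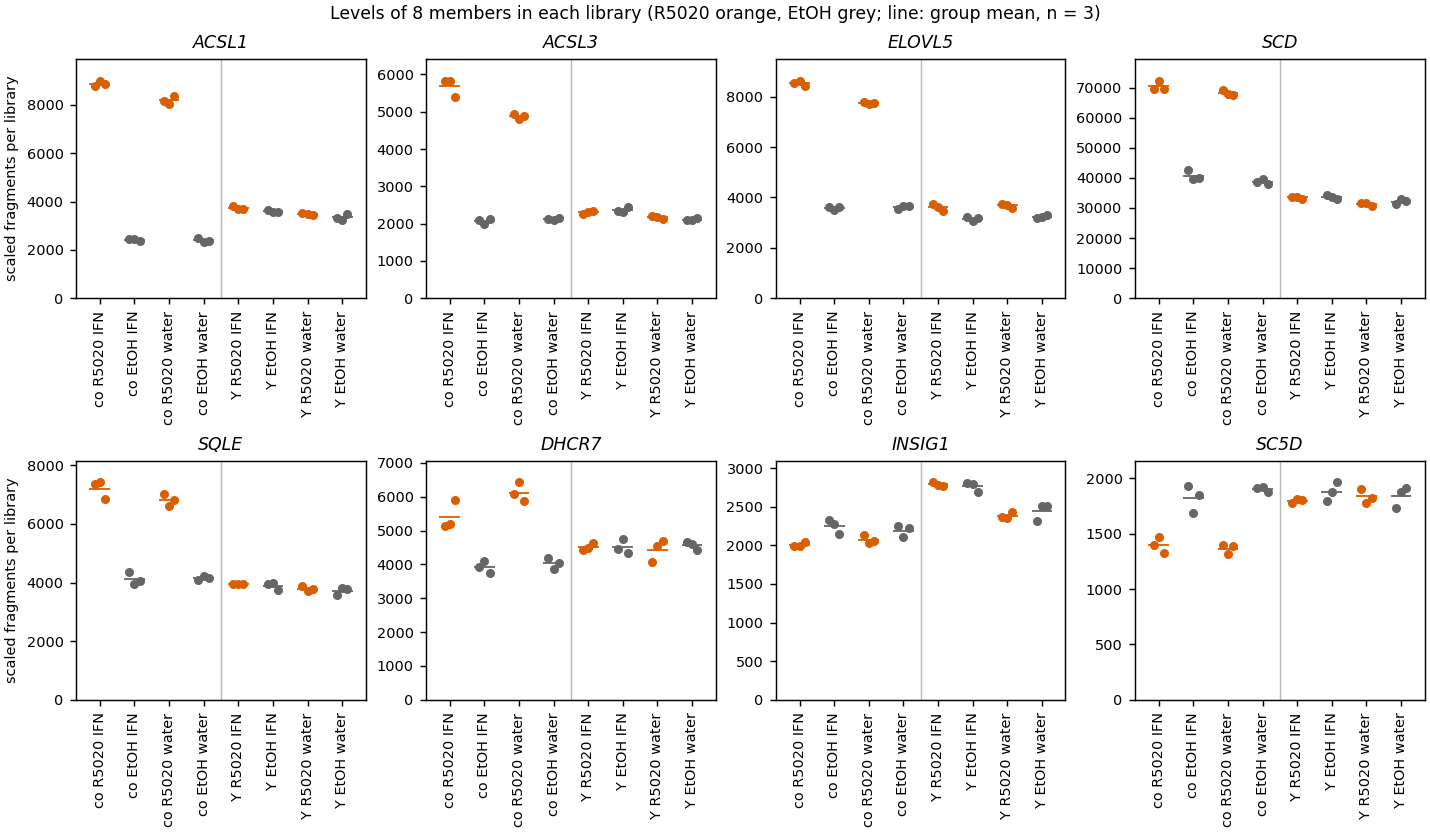
Scaled fragments (y axis, from 0) of 8 members in each of the 24 libraries, with T47D-co groups left of the grey line and T47D-Y groups right of it, R5020 in orange and EtOH in grey, 1 point per library and a line at each group mean. In T47D-co the R5020 points of ACSL1, ACSL3, ELOVL5, SCD, SQLE and DHCR7 stand above the EtOH points and those of SC5D below them, and in T47D-Y the R5020 and EtOH points overlap or lie close together.

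The R5020 responses in T47D-co were alike in direction with IFN and with water. These 2 sets of R5020 responses share no library, and across genes they correlated at r = 0.96 over the 22 sterol genes and 0.978 over the 18 fatty acid genes (Pearson; genes are not independent replicates). Of the sterol genes 14 rose in both states and 3 fell in both, of the fatty acid genes 15 rose in both, and no member was called in opposite directions. The share of all entries called in both states was not counted. In the single states 26.6% of all entries were called higher and 30.0% lower with water, and 27.5% and 30.6% with IFN.

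Promoter sequence was read for all members with an entry, whether or not they rose with R5020, in RefSeq's annotation of GRCh38.p14, which had an entry for 19 of 22 sterol genes and 16 of 19 fatty acid genes. Shown are the 250 bases upstream of the start site, 5′ to 3′ on the gene's strand, of the 2 genes of each branch with the largest rise in T47D-co given water, SQLE apart, namely DHCR7 (chr11:71448394-71448643, minus strand), PMVK (chr1:154936720-154936969, minus), ACSL1 (chr4:184825969-184826218, minus) and ACSL3 (chr2:222860786-222861035, plus). SREBF2 (chr22:41832855-41833104, plus) was added after the matches were seen, because it holds the only match to the sterol regulatory element. Capitals mark matches, on either strand, to CCAAT (the box bound by NF-Y, which acts beside SREBPs), TCACNCCAC (a form of the sterol regulatory element) and AGAACA (a repeat unit of the element that PR and the glucocorticoid receptor share).
DHCR7: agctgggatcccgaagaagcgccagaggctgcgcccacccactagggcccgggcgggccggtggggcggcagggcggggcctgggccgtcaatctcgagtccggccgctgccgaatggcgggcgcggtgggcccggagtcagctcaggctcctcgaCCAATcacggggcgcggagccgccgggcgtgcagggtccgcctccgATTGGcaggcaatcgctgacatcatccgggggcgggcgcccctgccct
PMVK: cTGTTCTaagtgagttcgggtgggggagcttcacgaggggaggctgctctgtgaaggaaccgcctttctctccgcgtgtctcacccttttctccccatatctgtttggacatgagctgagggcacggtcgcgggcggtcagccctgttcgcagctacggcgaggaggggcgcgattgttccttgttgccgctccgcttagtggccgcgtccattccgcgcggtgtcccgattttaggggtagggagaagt
SREBF2: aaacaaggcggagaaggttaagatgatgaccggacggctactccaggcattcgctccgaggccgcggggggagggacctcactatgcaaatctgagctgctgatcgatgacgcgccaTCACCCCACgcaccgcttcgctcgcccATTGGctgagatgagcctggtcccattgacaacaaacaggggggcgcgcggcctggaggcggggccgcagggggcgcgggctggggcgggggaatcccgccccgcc
ACSL1: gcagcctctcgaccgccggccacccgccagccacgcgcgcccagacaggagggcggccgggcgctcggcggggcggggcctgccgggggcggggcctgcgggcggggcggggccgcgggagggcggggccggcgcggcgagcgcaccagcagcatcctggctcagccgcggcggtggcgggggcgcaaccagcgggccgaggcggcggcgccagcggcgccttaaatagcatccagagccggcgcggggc
ACSL3: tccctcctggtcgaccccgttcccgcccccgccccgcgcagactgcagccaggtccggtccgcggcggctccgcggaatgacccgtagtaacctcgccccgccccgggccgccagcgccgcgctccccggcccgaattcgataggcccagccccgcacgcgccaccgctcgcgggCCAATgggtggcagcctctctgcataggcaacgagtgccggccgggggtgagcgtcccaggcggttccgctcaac
DHCR7 held a CCAAT box at -94 to -90 and another at -48 to -44 from the start site. SREBF2 held the sterol regulatory element at -133 to -125 and CCAAT at -106 to -102, ACSL3 held CCAAT at -75 to -71, PMVK held AGAACA at -249 to -244, and ACSL1 held none of the 3. Over the 250 upstream bases, CCAAT was found in 15 of 19 sterol promoters (78.9%) and 6 of 16 fatty acid promoters (37.5%), beside 33.0% of 27305 promoters of the annotation. The sterol element was found in 1 sterol promoter, 0 fatty acid promoters and 0.9% of all, and AGAACA in 1, 0 and 12.4%. No 2 matches overlap in the sequences shown, and a match is a description of the letters and not a bound site. Only 1 start site per gene was read, so the absence of a match holds for that site only.

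In T47D-Y, 1 of the 40 genes was called with R5020. With water and with IFN alike, limma called 0 of 22 sterol genes, and 1 of 18 fatty acid genes rose. At an unadjusted p under 0.05 were 0 and 1 sterol genes and 2 and 1 fatty acid genes, beside 849 and 1206 of all 20176 entries. Of all entries 0.208% were called higher and 0.0149% lower with water, and 0.263% and 0.0347% with IFN. The gene that rose was ELOVL5, with 3748, 3707 and 3592 scaled fragments with R5020, against 3176, 3205 and 3305 with EtOH, given water, and 3745, 3610.4 and 3467, against 3237, 3065 and 3178, given IFN. No libraries overlapped in either state, and the log2 fold changes were 0.19 ± 0.03 (adjusted p = 0.00165) and 0.19 ± 0.03 (adjusted p = 0.00176). Without the 4 libraries low in mitochondrial transcripts, 3 of which belong to this comparison with water, the value was 0.14 and was not called (adjusted p = 1), on 1 R5020 and 2 EtOH libraries. A fit on the 6 libraries of each comparison alone gave adjusted p = 0.0679 and 0.224. The check gene FKBP5 held 2169, 2056 and 2094 with R5020, against 1244, 1128 and 1281 with EtOH, in T47D-Y given water (log2 0.79 ± 0.04, limma adjusted p = 1.04e-11).

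Other genes with large changes in T47D-co were not called in T47D-Y. ACSL1 held 3510, 3465 and 3435 scaled fragments with R5020, against 3325, 3232 and 3499.8 with EtOH, in T47D-Y given water, a log2 fold change of 0.05 ± 0.03 (95% interval -0.01 to 0.11). For ACSL3 the interval was -0.03 to 0.11, for SCD -0.09 to 0.02, for SQLE -0.05 to 0.11, for FASN -0.19 to 0.13 and for SC5D -0.10 to 0.10. DGAT2 held 119, 129.7 and 127 with R5020, against 106, 108 and 109.9 with EtOH, given water, without overlap, and its log2 fold change of 0.21 ± 0.13 had a wide interval (-0.06 to 0.48), while given IFN its groups overlapped (95% interval -0.28 to 0.26). The difference between the lines was itself tested as the response of T47D-co minus that of T47D-Y. With water it was called positive for 15 and negative for 2 of 22 sterol genes and positive for 14 and negative for 0 of 18 fatty acid genes, beside 21.6% and 23.0% of all entries. Without the 4 low-mitochondrial libraries these counts were 13 and 2, and 14 and 0. Under quantile normalization INSIG1 was also called, at -0.15 (adjusted p = 0.023). On the common scale the difference with water was 1.72 ± 0.04 for ACSL1 (limma adjusted p = 9.40e-21), 1.16 ± 0.05 for ACSL3, 0.91 ± 0.04 for ELOVL5, 0.68 ± 0.05 for SQLE and -0.48 ± 0.07 for SC5D. With IFN the counts were 14 and 5, and 14 and 1, beside 22.9% and 23.1%, and quantile normalization made the sterol counts 9 and 6.

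Few members were called with IFN alone. In T47D-co given EtOH, limma called 0 of 22 sterol genes, and 1 of 18 fatty acid genes fell, beside 0.57% of all entries called higher and 0.431% lower. At an unadjusted p under 0.05 were 1 sterol gene and 4 fatty acid genes, beside 1773 of all 20176 entries. The gene that fell was LPIN1, with 585, 640.0 and 647 scaled fragments with IFN, against 701, 768 and 687 with water (log2 -0.20 ± 0.05, adjusted p = 0.0243). The groups did not overlap, but the call was lost without T47D-co EtOH water replicate 2, 1 of the 4 low-mitochondrial libraries (-0.15, adjusted p = 0.226), and without IFN replicate 1 (-0.16, adjusted p = 0.195). On the deposited scale, which is set apart for each IFN state, 21 sterol and 13 fatty acid genes were called here, all of them lower. Of all 20233 entries tested on the deposited scale, 125 were called higher and 8308 lower, so the counts with IFN hold for the common scale only. On that scale the 95% intervals of the log2 fold change were -0.09 to 0.10 for HMGCS1, -0.09 to 0.06 for SQLE, -0.04 to 0.08 for ACACA, -0.22 to 0.09 for FASN and 0.01 to 0.13 for SCD.

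In T47D-Y, INSIG1 rose with IFN both with R5020 and with EtOH. INSIG1 held 2812, 2791 and 2687 scaled fragments with IFN, against 2321, 2508 and 2514 with water, given EtOH (log2 0.18 ± 0.04, limma adjusted p = 0.00436), and 2814, 2780.2 and 2769.7, against 2366, 2350.5 and 2432, given R5020 (log2 0.23 ± 0.04, adjusted p = 0.000242). All 6 libraries given IFN lay above all 6 given water. Without the 4 low-mitochondrial libraries the rise with EtOH was 0.14 and was not called (adjusted p = 0.0609). The same omission leaves 1 water library given R5020, with a value of 0.20 and its spread taken from the other groups. In T47D-co the same gene had 0.04 ± 0.04 with EtOH, and the difference of the IFN responses between the lines did not pass (-0.14 ± 0.05, adjusted p = 0.441). With EtOH, ACSL3 was the only fatty acid gene called in T47D-Y, with 2328, 2302 and 2436 given IFN, against 2094, 2090.2 and 2139 given water (log2 0.16 ± 0.03, adjusted p = 0.00411). These 2 calls of 40 stand beside 2.55% of all entries called higher and 1.95% called lower. With R5020 the counts in T47D-Y were 1 higher and 1 lower of 22 sterol genes and 2 higher of 18 fatty acid genes, beside 3.12% and 1.71%. Besides INSIG1 the called genes were SCD (0.10 ± 0.03), ACSL1 (0.11 ± 0.03) and TM7SF2 (-0.19 ± 0.05). The SCD and ACSL1 calls each ended when any of R5020 water replicates 1, 2 or 3 or R5020 IFN replicates 1 or 2 was left out, and the TM7SF2 call without R5020 water replicates 2 or 3 or R5020 IFN replicates 1 or 2 (adjusted p = 0.0643 to 0.212 over the 3 genes).

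Among T47D-co libraries given R5020, more members differed with IFN than among those given EtOH. So did more of all 20176 tested entries, with 2267 called against 202. Of 18 fatty acid genes 5 rose and 1 fell, and of 22 sterol genes 0 rose and 3 fell, beside 7.55% of all entries called higher and 3.68% lower. The 5 that rose are FADS1, ACSL3, ELOVL5, ACACA and ACSL1. ACSL3 held 5825, 5830.3 and 5409.8 scaled fragments with IFN, against 4948, 4803 and 4898 with water (log2 0.22 ± 0.03, limma adjusted p = 0.000154), and ELOVL5 held 8563, 8630.2 and 8414, against 7771, 7696 and 7753 (log2 0.14 ± 0.03). FADS1 held 946, 928 and 974, against 828, 786 and 825 (log2 0.22 ± 0.04), but the sum over its locus, which adds the entries that overlap it, had 0.01 (adjusted p = 0.871). ACACA and ACSL1 rose by 0.12 ± 0.03 and 0.11 ± 0.03, and the ACACA call was lost without R5020 IFN replicate 1 (0.09, adjusted p = 0.0867). Under quantile normalization the ACACA and ELOVL5 calls were lost as well (0.06, adjusted p = 0.223, and 0.09, adjusted p = 0.0641).

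The genes that were lower with IFN among these libraries were GPAM, MVD, TM7SF2 and DHCR7. GPAM held 236, 287 and 282 scaled fragments with IFN, against 306, 352 and 337 with water (log2 -0.31 ± 0.07, limma adjusted p = 0.00873), and the call was lost without R5020 water replicate 2 or R5020 IFN replicate 1 (adjusted p = 0.0574 and 0.0802). MVD held 1773, 1803 and 1981, against 2099, 2287 and 2012 (log2 -0.20 ± 0.06, adjusted p = 0.0384), TM7SF2 had -0.18 ± 0.05 and DHCR7 -0.18 ± 0.05. In MVD, TM7SF2 and DHCR7 the third library given both agents stood above the other two of its group, and the same library was the highest of its group in FASN and SREBF1. That library also had the lowest share of the non-coding RNAs RN7SL, RN7SK, MALAT1 and RPPH1, 2.78% of fragments, with 3.10 and 3.12% in the other two of its group and 3.66 to 4.29% in the other 9 T47D-co libraries, and the part of this difference in the results was not tested. The 3 sterol calls fell to 0 without R5020 water replicate 2 or without R5020 IFN replicates 1 or 2, and to 1 without R5020 water replicate 1. Without R5020 IFN replicate 3, FASN and SREBF1 were called lower with IFN (-0.29, adjusted p = 0.00992, and -0.20, adjusted p = 0.0324), which with all libraries they were not (-0.18 ± 0.08 and -0.11 ± 0.07).

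**Figure D3:**
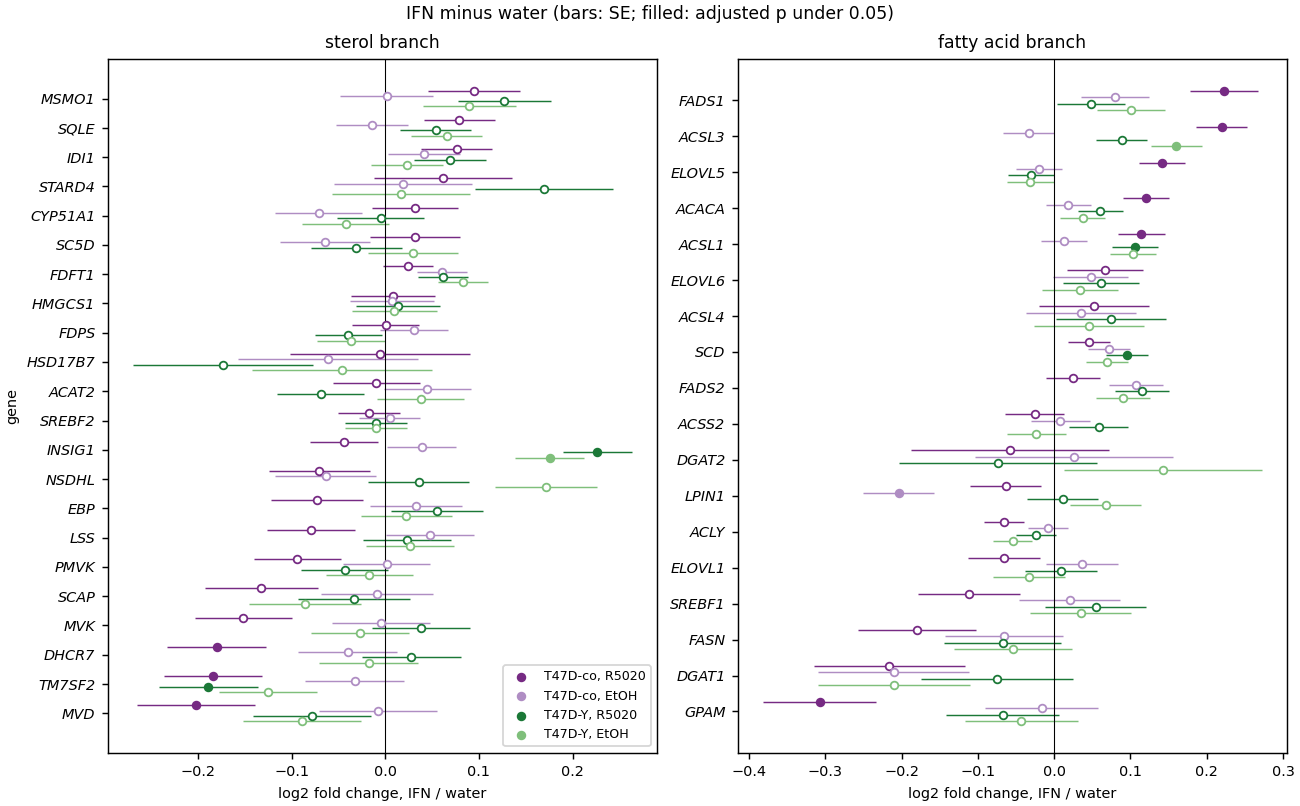
Log2 fold changes of IFN over water (x axis) for the sterol genes (left) and the fatty acid genes (right), in each line with R5020 and with EtOH, with bars for the standard error and filled points for a limma adjusted p under 0.05. All points lie between -0.31 and 0.23, and the filled points are few, most of them from T47D-co libraries given R5020.

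Whether IFN changed the R5020 response itself was tested as the response with IFN minus that with water. In T47D-co this difference was called for 0 of 22 sterol genes and 1 of 18 fatty acid genes, beside 0.882% of all entries called positive and 0.144% negative. At an unadjusted limma p under 0.05 were 1 sterol gene and 7 fatty acid genes, beside 3102 of all 20176 entries. The called gene was ACSL3, whose R5020 response was 2.74-fold with IFN and 2.3-fold with water, a difference of 0.25 ± 0.05 on the log2 scale (limma adjusted p = 0.00915). ELOVL5 came next with 0.16 ± 0.04 and did not pass (adjusted p = 0.069). GPAM had -0.29 ± 0.10 (adjusted p = 0.171) and SQLE 0.09 ± 0.05 (95% interval -0.02 to 0.20). In T47D-Y limma called 0 of the 40 genes and 0 of all 20176 entries, of which 698 were at an unadjusted p under 0.05 but none of the members. The difference of the IFN response between the lines, among libraries given EtOH, was called for 0 of 40 members, with 5 at an unadjusted p under 0.05, beside 0.0743% of all entries positive and 0.357% negative.

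**Figure D4:**
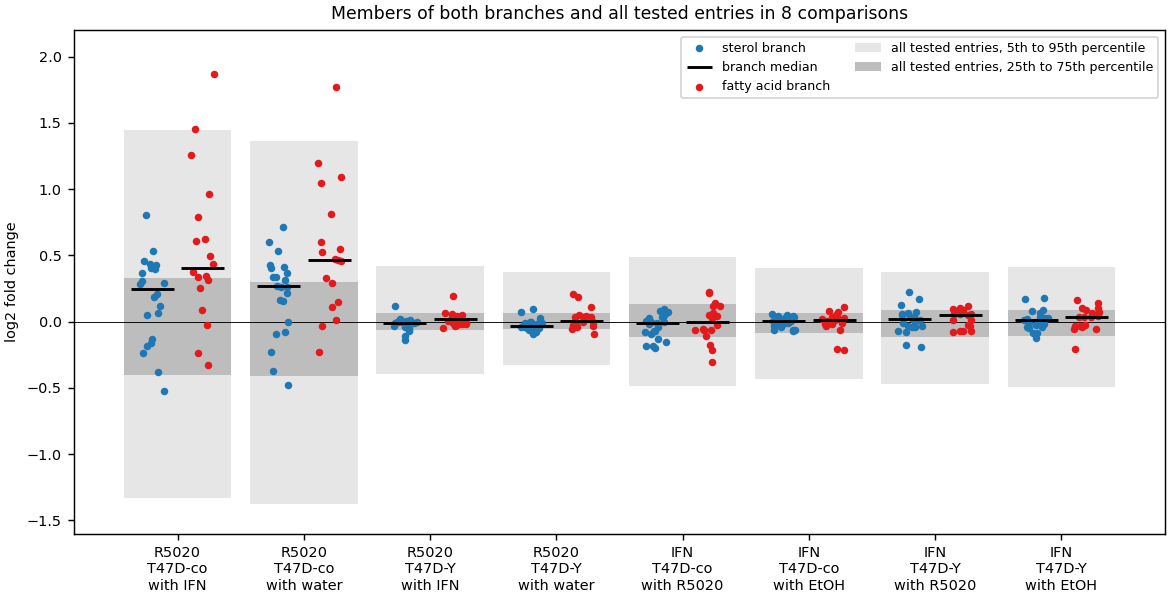
Log2 fold changes (y axis) of the sterol genes (blue) and fatty acid genes (red) in 8 comparisons, 1 point per gene, with a black line at each branch's median and grey bars for all 20176 tested entries (light, 5th to 95th percentile; dark, 25th to 75th). With R5020 in T47D-co the branch medians are 0.25 to 0.47, above the median of all entries at -0.05 and -0.04, and in the other 6 comparisons the medians lie between -0.03 and 0.05.

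Before R5020 the lines already differed at most members, in both directions. With EtOH and water, T47D-co was higher than T47D-Y in 9 and lower in 8 of 22 sterol genes and higher in 7 and lower in 9 of 18 fatty acid genes, beside 29.7% and 33.4% of all entries. Higher in T47D-co were IDI1, with 4441, 4369 and 4194 scaled fragments in T47D-co, against 2398, 2676 and 2585 in T47D-Y (log2 0.76 ± 0.04, limma adjusted p = 3.61e-15), and PMVK, MVK and EBP (0.40 ± 0.05, 0.36 ± 0.05 and 0.35 ± 0.05). Lower in T47D-co were NSDHL (511, 521 and 558 in T47D-co, against 970.2, 972 and 933 in T47D-Y, log2 -0.85 ± 0.05), FDFT1 (-0.77 ± 0.03), HMGCS1 (-0.64 ± 0.04) and HSD17B7 (-0.34 ± 0.10). HMGCS1 and FDFT1 were lower and MVK, PMVK, IDI1 and FDPS between them higher, while MVD, also between them, was not called. In the fatty acid branch DGAT1, ELOVL6, ELOVL1 and SCD were higher in T47D-co (0.69 ± 0.10, 0.59 ± 0.05, 0.35 ± 0.05 and 0.27 ± 0.03). SCD was not called on the deposited scale or under quantile normalization (0.04 and 0.08, adjusted p = 0.249 and 0.384). LPIN1 was lower, with 701, 768 and 687 in T47D-co, against 2013, 1999 and 1914 in T47D-Y (log2 -1.46 ± 0.05, adjusted p = 2.93e-19), as were ACSL4 (-1.27 ± 0.07), GPAM (-0.66 ± 0.07) and FASN (-0.61 ± 0.08). With EtOH and IFN the counts were also 9 and 8, and 7 and 9, beside 29.6% and 33.0%. Without the 4 low-mitochondrial libraries the counts with EtOH and water were 8 and 6, and 7 and 9. These splits depend on the common scale: on the deposited scale, set separately for each line and IFN state, they were 4 and 13, and 3 and 10, with water, and 11 and 6, and 7 and 9, with IFN. Of all 20233 entries tested on the deposited scale, 3622 were called higher and 9876 lower with water, and 6806 and 5936 with IFN.

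With R5020 the balance of the lines was different. With R5020 and water, T47D-co was higher in 13 and lower in 5 sterol genes and higher in 12 and lower in 5 fatty acid genes, beside 32.0% and 36.6% of all entries, and with R5020 and IFN the counts were the same, beside 32.5% and 35.8%. Without the 4 low-mitochondrial libraries the counts with R5020 and water were 12 and 5 in each branch. On the deposited scale the sterol counts with water were 11 and 9, beside 4506 and 9871 of 20233 entries. Under quantile normalization those with IFN were 10 and 7, beside 6917 and 6745 of 20176 entries. The call changed sides in 6 members between EtOH and R5020: ACAT2, DHCR7, SCAP, ACACA, ACSL1 and FADS2 were lower in T47D-co with EtOH and higher with R5020. Side changes were not counted over all entries. ACSL1 averaged 8200 ± 167 scaled fragments in T47D-co and 3470 ± 37.9 in T47D-Y with R5020 and water, and 2402 ± 74.8 in T47D-co and 3352 ± 136 in T47D-Y with EtOH and water (SD, n = 3 each). The side change of SCAP rests on a small deficit with EtOH (-0.15 ± 0.06), which was not called without T47D-co EtOH replicates 2 or 3 or T47D-Y EtOH replicates 1 or 2 (adjusted p = 0.0616 to 0.107) or without the 4 low-mitochondrial libraries (-0.11, adjusted p = 0.209). The SCAP excess with R5020 and water was not called on the deposited scale (0.11, adjusted p = 0.117), and ACACA with R5020 was -0.04 on the deposited scale and -0.04 under quantile normalization, against 0.17 ± 0.03 on the common scale. FASN, lower in T47D-co with EtOH, averaged 27380 ± 1680 in T47D-co and 27990 ± 2470 in T47D-Y with R5020 and water and was not called (-0.03 ± 0.08, 95% interval -0.19 to 0.13). On the deposited scale FASN was called lower there (-0.24, adjusted p = 0.00693), and with R5020 and IFN it was called lower under quantile normalization (-0.31) and without T47D-co replicate 3 (-0.25). SC5D had no call with EtOH (0.05 ± 0.05) and was lower in T47D-co with R5020 (-0.43 ± 0.05).

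**Figure D5:**
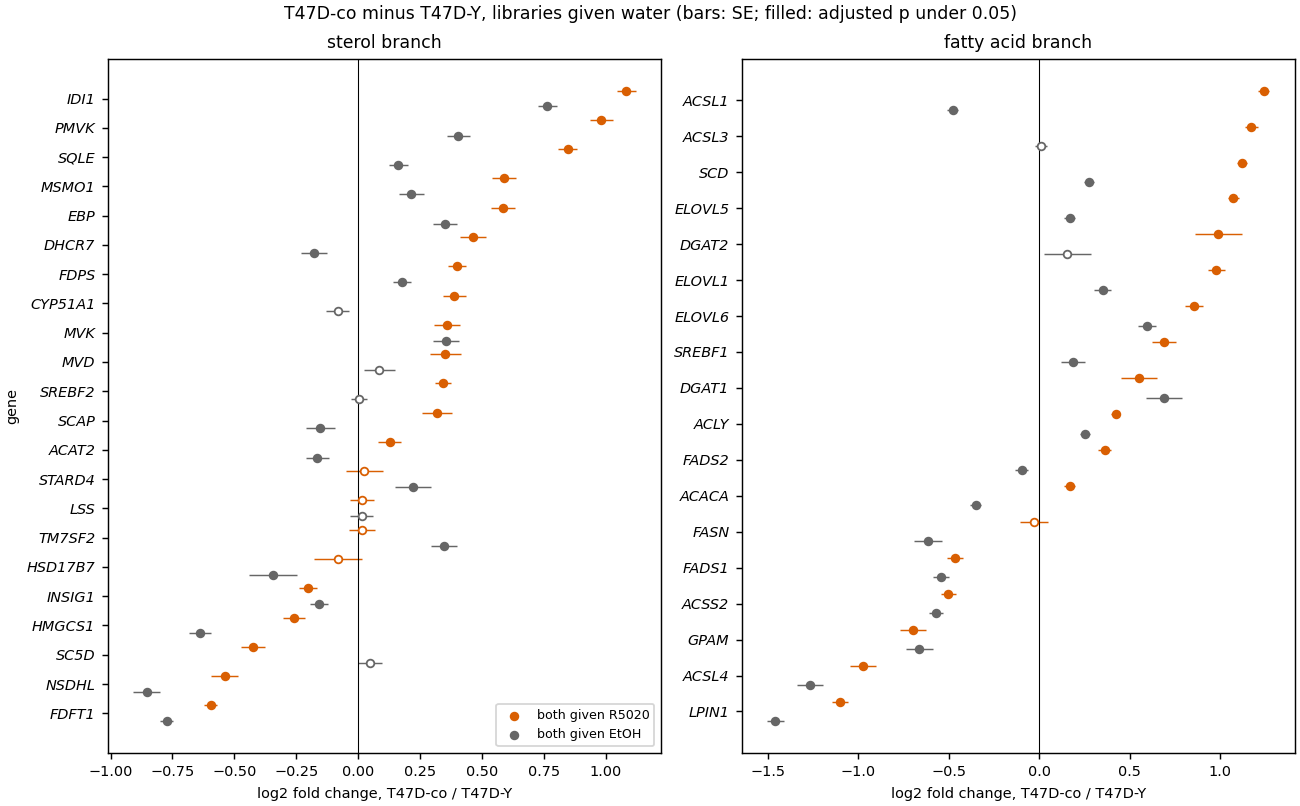
Log2 fold changes of T47D-co over T47D-Y (x axis) for the sterol genes (left) and the fatty acid genes (right), with both lines given R5020 (orange) or both given EtOH (grey), all with water, with bars for the standard error and filled points for a limma adjusted p under 0.05. ACSL1 lies at 1.24 with R5020 and -0.48 with EtOH, and LPIN1 is the lowest member in both.

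Over the 8 groups, 12 of the 22 sterol genes and 11 of the 18 tested fatty acid genes had their highest group mean in a T47D-co group given R5020. The other members had it elsewhere: 5 sterol genes in T47D-co given EtOH and 5 in T47D-Y, and 1 fatty acid gene in T47D-co given EtOH and 6 in T47D-Y. The highest group was not counted over all tested entries, so these counts have no share of all entries to stand beside. The shares of all entries called higher with R5020 in T47D-co, 26.6% with water and 27.5% with IFN, are a different measure.

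Other lipid genes, from lists beside the 41, were counted in the same fit of R5020 in T47D-co given water, where 26.6% of all entries were called higher and 30.0% lower, and the shares of several lists lie near these. With IFN the counts were the same, except for fatty acid oxidation (4 rose and 6 fell) and citrate and NADPH supply (3 rose and 1 fell), beside 27.5% and 30.6%. Of 12 tested genes of cholesterol transport and storage 2 rose and 8 fell, with a median log2 fold change of -0.23. ABCA1, which exports cholesterol, averaged 147 ± 7.56 scaled fragments with R5020 and 59.9 ± 3.05 with EtOH (SD, n = 3 each; log2 1.28 ± 0.08), and SOAT1, which esterifies it for storage, averaged 770.3 ± 58 and 1256 ± 22.8 (-0.71 ± 0.05). Of 8 further genes of sterol synthesis and SREBP processing 2 rose and 3 fell, and the largest change was in INSIG2, the second SREBP-retaining protein, with 417 ± 26.5 with R5020 and 946 ± 45.6 with EtOH (log2 -1.18 ± 0.07, limma adjusted p = 3.14e-14). Of 10 lipid droplet and lipolysis genes 5 rose and 3 fell, led by HILPDA, an inhibitor of lipolysis, with 12320 ± 267 and 3793 ± 143 (1.70 ± 0.03), and PLIN2, a droplet coat protein (1.45 ± 0.10). LIPE, hormone-sensitive lipase, fell by 0.75 on the log2 scale and PLIN4, another coat protein, by 0.73. Of 14 tested fatty acid oxidation genes 5 rose, among them ACADM, a medium-chain acyl-CoA dehydrogenase (0.47 ± 0.05), and 6 fell, among them CPT1A, which admits fatty acids to the mitochondrion (-0.47 ± 0.03). ACADM and CPT1A were not the extremes of this list, whose log2 fold changes ran from -2.65 to 0.82. Of 7 genes that supply citrate and NADPH 5 rose, led by PDHA1 of pyruvate dehydrogenase (0.95 ± 0.03), and 1 fell. In T47D-Y none of these 51 genes was called with R5020 by limma in either IFN state, with 1 at an unadjusted p under 0.05 given water and 3 given IFN.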

How the data were processed

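RNA was sequenced from 24 libraries in 8 groups, biological triplicates per the labels. Per the submitters' processing notes, TopHat2 2.0.12 and Cufflinks 2.2.1 were used with GRCh37 (hg19). The deposited values, a signal per gene, are by their steps estimated fragments divided by a size factor that the authors set separately in 4 sets of 6 libraries (line by IFN state). Library steps of 0.637 to 1.363 were recovered from the values, undone and replaced by 1 median-of-ratios scaling over 14210 entries averaging at least 50 fragments, because comparisons across IFN states or lines need 1 scale. Within 0.05, 97.8 to 98.8% of values of entries alone at their locus but 62.9 to 64.9% of all values came out whole, so no count test was run. Beside the 25541 entries, 1 blank line was left out.

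Entries with at least 10 in at least 3 libraries (20176) were fitted by limma 3.58.1 (R 4.3.3, trend) on log2(scaled value + 1) with 8 group means, 16 residual and 8.03 prior degrees of freedom, and 17 comparisons. Calls are at a two-sided Benjamini-Hochberg adjusted p under 0.05 over all tested entries, and fold changes on this scale understate those of low genes. Tables and figures were made with Python 3.11.15, pandas 2.3.3, numpy 2.4.6 and matplotlib 3.10.9, and the fit was tested on simulated data. Genes were named by rule: in each branch up to 4 called rises and 4 falls per comparison, the regulators SREBF1, SREBF2, SCAP and INSIG1, and HMGCS1, SQLE, FASN, ACACA and SCD; genes printed beyond these follow the order of the pathway. The members, lists and alternatives were chosen with earlier results of these data known. Alternatives were the deposited scale, quantile normalization, a pseudocount of 10, no filter, a fit on the compared groups, a replicate block, leaving out 4 libraries together or each library in turn, and sums over shared loci.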

Additional observations from a re-analysis of the deposited data

Results flagged for a closer look

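The R5020 response differed between the lines, by a test of the difference itself, in 15 named genes with water and 18 with IFN (limma, Benjamini-Hochberg adjusted p under 0.05). Of all entries 21.6% were called positive and 23.0% negative with water, and 22.9% and 23.1% with IFN. By rule the named genes include the largest called differences, so their number is in part set by the naming. As log2 response of T47D-co minus that of T47D-Y, the differences with water were HMGCS1 0.38, SQLE 0.68, DHCR7 0.64, PMVK 0.58, SC5D -0.48, TM7SF2 -0.33, SCAP 0.47, SREBF2 0.34, SREBF1 0.51, SCD 0.85, FASN 0.58, ACACA 0.52, ELOVL5 0.91, ACSL1 1.72 and ACSL3 1.16. With IFN they were HMGCS1 0.38, SQLE 0.79, INSIG1 -0.18, PMVK 0.51, CYP51A1 0.54, SC5D -0.32, TM7SF2 -0.42, STARD4 -0.31, SCAP 0.29, SREBF2 0.32, SREBF1 0.35, SCD 0.80, FASN 0.48, ACACA 0.60, ELOVL5 1.06, ACSL1 1.82, ACSL3 1.49 and GPAM -0.30. The differences of SREBF1, SREBF2, SCAP and FASN with IFN were not called under quantile normalization. The R5020 response also differed between IFN states in T47D-co for ACSL3, by 0.25 on the log2 scale. No group of 3 libraries was tested for outlying libraries.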

How the results depend on the processing

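No called R5020 response of a named gene in T47D-co turned its sign under any alternative run, and no called line by R5020 difference did, with the total counts of called members in each branch within 1.5 times of those reported. Split by direction, quantile normalization moved some counts by more, to 9 higher, against 14 reported, for the sterol line by R5020 difference with IFN and to 5 lower, against 3 reported, for sterol genes with R5020 in T47D-co given water. The IFN responses and the line differences depend on the scale. On the deposited scale, set separately by line and IFN state, IFN was called in 21 sterol and 13 fatty acid genes of T47D-co given EtOH, 19 and 10 of T47D-co given R5020, 22 and 18 of T47D-Y given EtOH and 22 and 18 of T47D-Y given R5020, and the line by IFN difference in 20 and 14, which follows from its construction. In the same order, 125 and 8308, 159 and 7040, 120 and 14621, 105 and 14700, and 9461 and 80 of all 20233 entries were called higher and lower there. Sign turns of named genes are listed here only where the value was called in at least 1 of the 2 settings compared. Log2 fold changes that turned their sign on the deposited scale were, for IFN in T47D-co given EtOH, ACACA -0.16, HMGCS1 -0.17, INSIG1 -0.14, SCD -0.11 and SREBF2 -0.17. For IFN in T47D-co given R5020 they were ACACA -0.068, ELOVL5 -0.047, HMGCS1 -0.18, SCD -0.14 and SQLE -0.11. For IFN in T47D-Y given EtOH they were ACACA -0.44, ACSL3 -0.32, HMGCS1 -0.47, INSIG1 -0.30, SCD -0.41, SQLE -0.41 and SREBF1 -0.44, and given R5020 ACACA -0.42, ACSL1 -0.38, HMGCS1 -0.47, INSIG1 -0.26, SCD -0.39, SQLE -0.43 and SREBF1 -0.43. For T47D-co against T47D-Y given EtOH and water they were SQLE -0.072, SREBF1 -0.050 and SREBF2 -0.23, given R5020 and water ACACA -0.045, and for the line by IFN difference ACACA 0.28, FASN 0.29, HMGCS1 0.29, INSIG1 0.16, SQLE 0.22 and SREBF1 0.28. Under quantile normalization the sign turned for IFN on SCD -0.028 in T47D-Y given R5020, and for ACACA between the lines, at -0.043 given R5020 and water and -0.022 given R5020 and IFN. The cause was not tested.

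Small counts moved with single settings. A fit on only the groups compared called 0 fatty acid genes with R5020 in T47D-Y with water and 0 with IFN, 0 fatty acid genes with IFN in T47D-co given EtOH, 0 sterol genes with IFN in T47D-co given R5020, 2 sterol genes with IFN in T47D-Y given EtOH, and 1 sterol and 0 fatty acid genes with IFN in T47D-Y given R5020. Without the 4 low-mitochondrial libraries, and so with fewer samples, the calls were 0 fatty acid genes with R5020 in T47D-Y given water, 0 fatty acid genes with IFN in T47D-co given EtOH, 0 sterol genes with IFN in T47D-Y given EtOH, and 1 sterol and 0 fatty acid genes with IFN in T47D-Y given R5020. With no filter, IFN was called in 1 sterol gene of T47D-co given R5020 and in 1 sterol and 1 fatty acid gene of T47D-Y given R5020. For fatty acid genes of T47D-Y given R5020, quantile normalization called 0 with IFN and a pseudocount of 10 called 1. Leaving out 1 library at a time gave 0 to 1 fatty acid genes for IFN in T47D-co given EtOH, 0 to 4 sterol genes in T47D-co given R5020, 1 to 2 fatty acid genes in T47D-Y given EtOH, 1 to 2 sterol and 0 to 2 fatty acid genes in T47D-Y given R5020, and 0 to 2 fatty acid genes for the line by IFN difference.

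With the replicate block, the line by IFN difference was called in 1 fatty acid gene, against 0 without it, and no named gene changed its call. Correlations of same-numbered libraries' deviations were -0.056 to 0.056, so the numbers were not taken to pair libraries. Other named values changed their call in 20 cases to called and 6 to not called on the deposited scale, 3 and 11 under quantile normalization, and 8 and 51 with 1 library left out. Depth and 3 libraries a group limit small differences, and values at loci shared with other entries rest on the authors' division of fragments.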
